A study of Rattus norvegicus with 20 samples.

Results

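Nr3c1, Hsd11b1 and Fkbp5 are 3 genes of glucocorticoid action, and they were followed here in 2 tissues of the same 10 rats. They were chosen by Ensembl identifier, ENSRNOG00000014096, ENSRNOG00000005861 and ENSRNOG00000022523 in that order, and make up 3 of the 32883 genes in the deposited table. The symbols came with that choice of identifiers and were not checked against an annotation. All 3 genes passed the filter on low counts.

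The animals were Fischer 344 x Brown Norway rats, labelled as 8 months old and kept on a reverse light cycle with lights off at 8 am. No group was treated, and the labels used here give no hour of tissue collection. The 10 muscle libraries came from the gastrocnemius in the calf, and the 10 adipose libraries from abdominal white fat. Equal animal numbers mark the same rat. Each sample label says male, whereas the design text of the series gives 5 males and 5 females, so sex entered no comparison.

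Glucocorticoids such as corticosterone, the main one of the rat, act through the glucocorticoid receptor, a transcription factor that is held in the cytoplasm by Hsp90 and its co-chaperones until hormone binds. The hormone available inside a cell depends on the circulating level and on local enzymes, since the product of Hsd11b1 regenerates active corticosterone from its inactive keto form. Once in the nucleus, the receptor raises Fkbp5 among other genes. The Fkbp5 protein in turn binds the Hsp90 complex and lowers the affinity of the receptor for hormone, and in many tissues its transcript is used as a readout of receptor activity. In muscle glucocorticoids favour the breakdown of protein. In fat they affect lipid storage and the formation of adipocytes.

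Muscle libraries held 8446753 to 20141854 counts in all, and adipose libraries 11067755 to 25904309. The scaling of the libraries matters for each gene compared between these tissues. Levels are given as counts per 1000000 reads (CPM) scaled by library total and by a trimmed-mean (TMM) factor, and also as CPM by library totals alone. The TMM factors were 0.5595 to 0.7472 in muscle and 1.2055 to 1.9786 in adipose tissue. For 168 genes whose muscle level by library totals was at least 20 CPM and exceeded that in fat 100 times or more, the median level reached 1.41%, 1.59% and 0.457% of that in muscle in adipose libraries 1, 3 and 5, as against 0.0287% to 0.163% in the other adipose libraries. For 154 genes restricted to fat by the same rule, the median was 0.532% of the adipose level in muscle library 2, as against 0.208% to 0.393% in the other muscle libraries. Symbols of defining markers were not paired with the identifiers, so the tissue labels were not checked against named markers.

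The first question was whether transcripts of the receptor, the enzyme and the response gene differed in level between the tissues. Only RNA was counted, so below these names stand for the transcripts, not for protein or activity. Hsd11b1 was the 1 member of 3 that differed by the test with TMM factors (quasi-likelihood test of edgeR, with p adjusted by Benjamini-Hochberg over all genes and a threshold of 0.05). It was 2.32-fold higher in adipose tissue. The same test called 79.8% of all 13806 genes, and 42.2% of all genes as higher in adipose tissue, so a call by itself says little about a gene here. In bulk tissue, fewer cells of a type and less RNA per cell cannot be told apart.

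**Figure D1:**
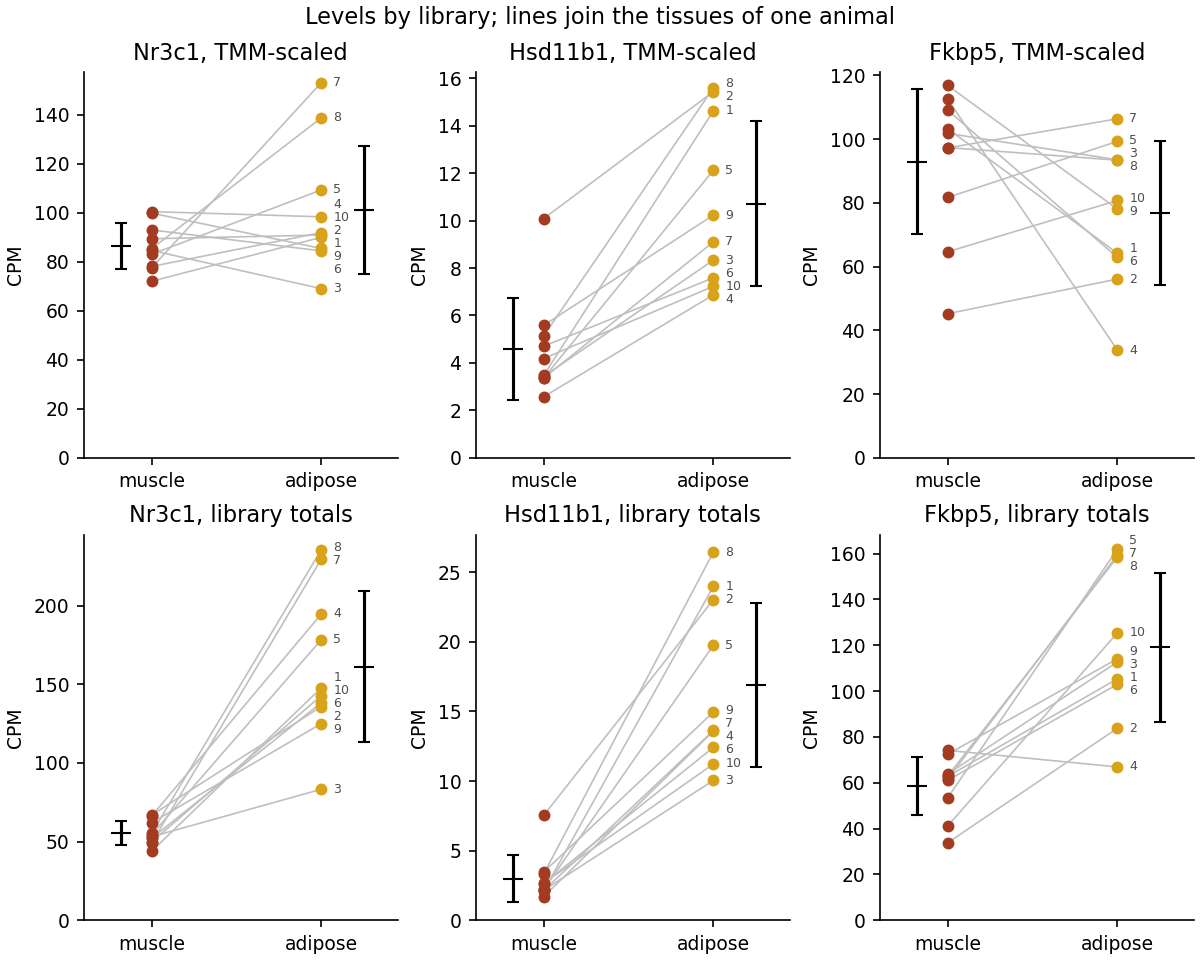
CPM of Nr3c1, Hsd11b1 and Fkbp5 in each library, with TMM factors in the upper row and by library totals in the lower row. Points are libraries, lines join the tissues of 1 animal, numbers at the adipose points name the animal, and bars beside the points show the mean and SD of 10 libraries. The lines of Hsd11b1 rise towards adipose tissue in 10 of 10 animals in both rows, whereas those of Fkbp5 cross in the upper row.

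Nr3c1, which encodes the receptor itself, had similar levels in the tissues on the TMM scale. In muscle its lowest, median and highest levels were 72.1, 85.0 and 100.5 CPM. In adipose tissue they were 69.1, 91.5 and 153 CPM. The ranges overlapped, and the adipose libraries of animals 5, 7 and 8, with 109, 153 and 139 CPM, lay above every muscle library. The means were 86.4 ± 9.43 CPM in muscle and 101 ± 25.97 CPM in adipose tissue (SD, n = 10). The log2 fold change of muscle over adipose tissue was -0.23 (SE 0.12, 95% interval -0.48 to 0.03), and it did not pass the test (edgeR adjusted p = 0.0914). Adipose tissue had the higher level in 6 of 10 animals.

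Hsd11b1, the gene of the enzyme that regenerates corticosterone, had few reads in both tissues. In muscle its lowest, median and highest levels were 2.58, 3.84 and 10.1 CPM. In adipose tissue they were 6.87, 9.67 and 15.6 CPM. Only muscle library 2, with 10.1 CPM, reached into the adipose range, and the other 9 muscle libraries, at 2.58 to 5.59 CPM, lay below all adipose libraries. The means were 4.59 ± 2.14 CPM in muscle and 10.7 ± 3.47 CPM in adipose tissue (SD, n = 10). The log2 fold change was -1.21 with a 95% interval of -1.69 to -0.74 (SE 0.23, edgeR adjusted p = 5.17e-05), and adipose tissue had the higher level in 10 of 10 animals. Within an animal, adipose tissue held between 1.53 times the muscle level, in animal 2, and 4.20 times, in animal 1. Over all genes tested, the 2 tissues did not overlap in 45.5%, so the near separation of Hsd11b1 is common between these tissues.

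The counts behind these levels were small. Muscle libraries held 17.5 to 123.8 counts of Hsd11b1, with a median of 42.9, and adipose libraries 111.0 to 511.4. Counting error alone thus comes to 23.9% of the level in the muscle library with the lowest count, and to 9.49% in the adipose library with the lowest. The coefficient of variation over muscle libraries was 46.6%, but 24.7% without muscle library 2. The counting error of 23.9% belongs to the lowest count only and was smaller in all other muscle libraries. How much of the spread is counting error was not tested. These errors cover counting only, since reads carried no molecular identifiers.

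Muscle library 2 set the upper end of Hsd11b1 in muscle. Without it, the muscle mean was 3.99 ± 0.986 CPM (SD, n = 9) and the log2 fold change reached -1.41 (SE 0.20, edgeR adjusted p = 1.14e-06). The adipose-restricted genes were also highest in this muscle library, at 0.532% of their adipose level, and their part in its Hsd11b1 level was not tested. Without adipose libraries 1, 3 and 5, the fold change of Hsd11b1 on the log2 scale was -1.11 (SE 0.25, edgeR adjusted p = 0.000543).

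Fkbp5, the response gene and co-chaperone, varied among the libraries of both tissues. In muscle its lowest, median and highest levels were 45.2, 99.6 and 117 CPM. In adipose tissue they were 33.8, 79.4 and 106 CPM. The ranges overlapped broadly, with muscle libraries 2 and 10 low at 45.2 and 64.6 CPM and adipose library 4 lowest of all. The coefficient of variation in muscle was 24.4%, but 16.5% without muscle library 2. The means were 92.9 ± 22.7 CPM in muscle and 76.8 ± 22.6 CPM in adipose tissue (SD, n = 10). Muscle over adipose tissue, the log2 fold change came to 0.27 (SE 0.18, 95% interval -0.11 to 0.66), and it did not pass the test (edgeR adjusted p = 0.176). Muscle had the higher level in 6 of 10 animals.

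The difference of Fkbp5 between the tissues ran both ways within animals. In animal 4, muscle held 3.33 times the adipose level, 112.5 against 33.8 CPM. In animal 10, it held 0.80 times, 64.6 against 80.7 CPM. The SD of the paired log2 difference, 0.66, exceeded its mean of 0.29 (two-sided exact permutation test by sign flips, p = 0.191). Without muscle library 2, the log2 fold change was 0.37 (SE 0.17) and just passed the test (edgeR adjusted p = 0.0477), in a fit that called 37.0% of genes as higher in muscle. Without both libraries of animal 2 it did not pass, nor did it when any other animal was left out (edgeR adjusted p 0.0943 to 0.389 over the 10 fits).

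The scaling decided how these levels read. By library totals alone, the median log2 fold change of all genes moved by -1.31, from -0.09 to -1.39, and the members moved with it, by -1.32 for Nr3c1, -1.28 for Hsd11b1 and -1.30 for Fkbp5. All 3 members then passed the test as higher in adipose tissue, which held for 74.2% of all genes. The log2 fold changes were -1.54 for Nr3c1 (SE 0.15, edgeR adjusted p = 2.86e-09), -2.49 for Hsd11b1 (SE 0.26, adjusted p = 7.63e-09) and -1.02 for Fkbp5 (SE 0.16, adjusted p = 4.84e-06). For Fkbp5 this turned the direction. With upper-quartile factors, which called 46.6% of genes as higher in adipose tissue, Nr3c1 passed the test at -0.41 (SE 0.12, edgeR adjusted p = 0.00318), Hsd11b1 stood at -1.41 and Fkbp5 at 0.10 (adjusted p = 0.634).

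On the scale of library totals, Nr3c1 was at 55.2 ± 7.56 CPM in muscle and 161 ± 48.0 CPM in adipose tissue (SD, n = 10). Its muscle libraries, at 43.8 to 66.8 CPM, all lay below its adipose libraries, at 83.3 to 236 CPM. Hsd11b1 was at 2.99 ± 1.69 and 16.9 ± 5.89 CPM (SD, n = 10), also without overlap. Of all genes, 50.3% had every muscle library below every adipose library on this scale. Fkbp5 was at 58.7 ± 12.7 and 119 ± 32.5 CPM (SD, n = 10), and its ranges overlapped. Adipose library 4, at 66.9 CPM, lay below muscle libraries 4 and 9, at 74.1 and 72.4 CPM.

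**Figure D2:**
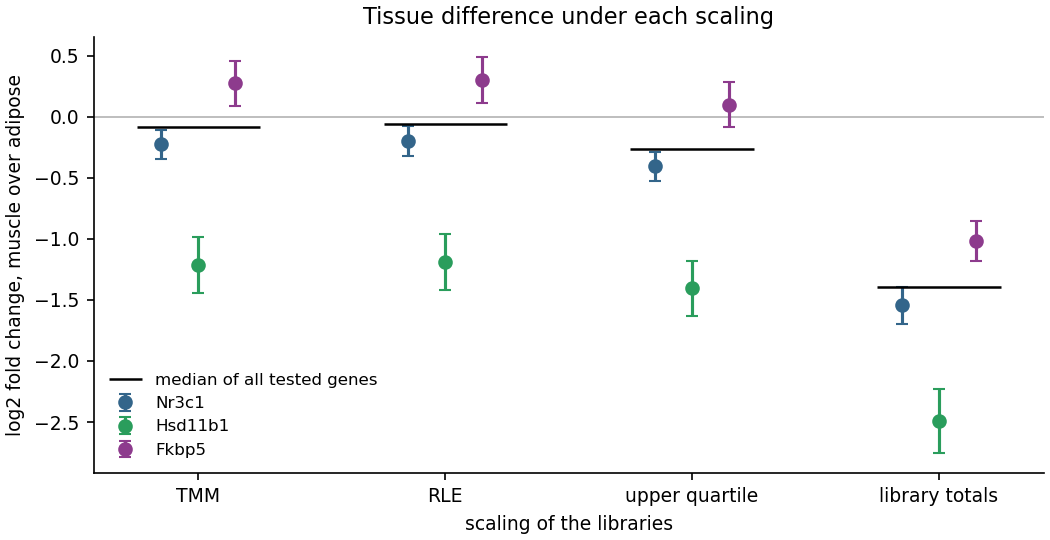
Log2 fold change of muscle over adipose tissue for the 3 genes under 4 scalings of the libraries; bars are SE of the edgeR fit, and black lines mark the median of all tested genes. Hsd11b1 stays below that median, Nr3c1 close to it and Fkbp5 above it under each scaling, while the median itself moves by -1.31 from TMM factors to library totals.

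A change of scaling moves all genes by nearly the same amount, so the distance of a member from the median of all tested genes hardly depends on it. On the log2 scale, Hsd11b1 lay at -1.13 from that median with TMM factors and at -1.10 by library totals. Nr3c1 lay at -0.14 and -0.15, and Fkbp5 at 0.36 and 0.37. Among all genes with TMM factors, 27.8% had a lower log2 fold change than Hsd11b1, 46.3% a lower one than Nr3c1 and 59.5% a lower one than Fkbp5.

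Ratios of 2 members within a library are nearly free of the scaling between libraries, and their difference between tissues does not depend on gene length. They therefore asked whether the balance of enzyme, receptor and response gene differed between muscle and fat. Each ratio was taken as a difference of log2 CPM with a prior count of 2. It thus departs slightly from the ratio of the CPM values above, most at low counts. The file gives no gene lengths, so the value of a ratio says nothing of which gene is the more abundant. The balance differed for each of the 3 pairs (two-sided exact permutation test by sign flips of the 10 paired differences, adjusted over 3 ratios). The smallest p this design allows is 0.00195. Most ratios differ between these tissues: set against every other tested gene, the ratio passed an unadjusted p of 0.05 in the same test for 76.4% of genes with Nr3c1, 82.7% with Hsd11b1 and 68.7% with Fkbp5. The 3 calls are thus what most pairs of genes give. They are also not independent results, since each ratio follows from the other 2.

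The transcript of the enzyme was higher relative to that of the receptor in fat. The ratio of Hsd11b1 to Nr3c1 had a lowest, median and highest value of 0.0268, 0.0508 and 0.114 in muscle, and of 0.0601, 0.112 and 0.171 in adipose tissue. Adipose tissue had the higher ratio in 10 of 10 animals, by 2.06-fold on average (mean log2 difference, muscle minus adipose, -1.04, SD 0.46, exact permutation test, p = 0.00195, adjusted p = 0.00293). Muscle library 2 had the highest muscle value, 0.114, and its own adipose library the highest adipose value, 0.171.

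The response gene was higher relative to the transcript of the enzyme in muscle. The ratio of Fkbp5 to Hsd11b1 had a lowest, median and highest value of 4.44, 23.0 and 41.8 in muscle, and of 3.61, 7.83 and 11.5 in adipose tissue. Apart from muscle library 2, with 4.44, all muscle libraries lay above all adipose libraries. The ratio was higher in muscle in 10 of 10 animals, by 2.89-fold on average (mean log2 difference 1.53, SD 0.86, exact permutation test, p = 0.00195, adjusted p = 0.00293).

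Fkbp5 relative to Nr3c1, the response gene against its receptor, was also higher in muscle, but less evenly. The lowest, median and highest values were 0.506, 1.15 and 1.43 in muscle, and 0.344, 0.729 and 1.35 in adipose tissue. The ranges overlapped, and the ratio was higher in muscle in 7 of 10 animals, the exceptions being animals 2, 3 and 10. The mean log2 difference was 0.49 (SD 0.62), a 1.40-fold excess in muscle (exact permutation test, p = 0.0352, adjusted p = 0.0352). This call depended on single animals: without animal 1, 4, 6, 7, 8 or 9, each left out alone, the mean log2 difference was 0.36 to 0.50 and the adjusted p was 0.0547 to 0.0703 (exact permutation test). In animal 4 the ratio was 1.12 in muscle and 0.344 in adipose tissue, the widest gap.

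**Figure D3:**
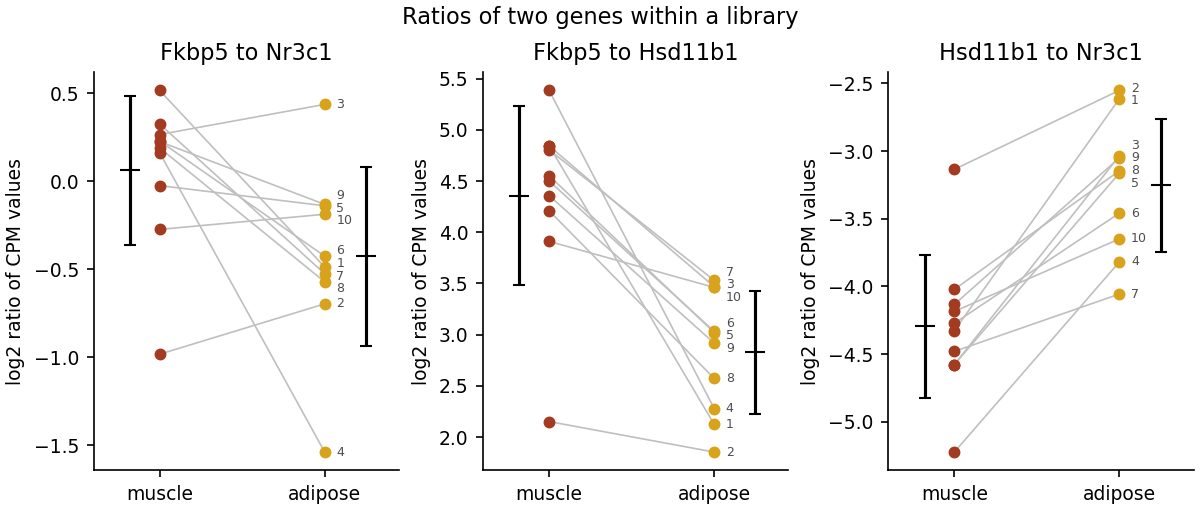
Log2 ratio of 2 genes within each library, taken as a difference of log2 CPM (TMM factors, prior count 2), for the 3 pairs of genes. Points are libraries, lines join the tissues of 1 animal, numbers name the animal, and bars show the mean and SD of 10 libraries. The lines of the 2 ratios with Hsd11b1 run in 1 direction in 10 of 10 animals, and those of Fkbp5 to Nr3c1 in 7 of 10.

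The second question was whether the response gene co-varied between the tissues, that is, whether animals with more Fkbp5 in muscle also had more in fat. Such a relation was not detected. Over 10 animals, the log2 CPM of Fkbp5 in muscle and in adipose tissue had a Pearson r of -0.0038 (permutation test, two-sided, p = 0.991, adjusted p = 0.991 over a family of 9 correlations). Spearman's rho was -0.333 (permutation test, p = 0.352, adjusted p = 0.708). The 95% interval of r by Fisher's z ran from -0.63 to 0.63, so 10 animals leave room for a relation of moderate size in either direction. Fkbp5 lay on the same side of both tissue medians in 2 of 10 animals.

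Single animals moved this value in both directions. Animal 2 was low in both tissues, with 45.2 CPM in muscle and 56.1 CPM in adipose tissue, and without it r was -0.40. Animal 4 was high in muscle, with 112.5 CPM, and lowest in adipose tissue, with 33.8 CPM, and without it r was 0.35. Without animals 2 and 10, the animals farthest from the muscle median, r was -0.60 (exact permutation test, n = 8, p = 0.125). By library totals r was 0.015 (permutation test, p = 0.965).

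Nr3c1 and Hsd11b1 were examined in the same way. For the receptor, r between the tissues was -0.26 (permutation test, p = 0.476, adjusted p = 0.66) and rho was -0.26 (p = 0.472, adjusted p = 0.708). Its interval ran from -0.76 to 0.44, and r was -0.47 without the 2 animals farthest from the muscle median (exact permutation test, p = 0.24). The receptor lay on the same side of both medians in 4 of 10 animals.

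For Hsd11b1, r between the tissues was 0.52 (permutation test, p = 0.12, adjusted p = 0.541) and rho was 0.52 (p = 0.135, adjusted p = 0.653), with an interval of -0.17 to 0.87. Animal 2, highest in muscle and second in fat, and animal 4, lowest in both tissues, were the ends of this relation. Without the 2 animals farthest from the muscle median, r was 0.036 (exact permutation test, p = 0.93). With each animal left out in turn, r was 0.293 to 0.653, and without animals 1, 3 and 5 it was 0.753. The size of r thus depended on which animals were kept. Without animal 2 alone r was 0.29. Hsd11b1 lay on the same side of both medians in 6 of 10 animals.

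**Figure D4:**
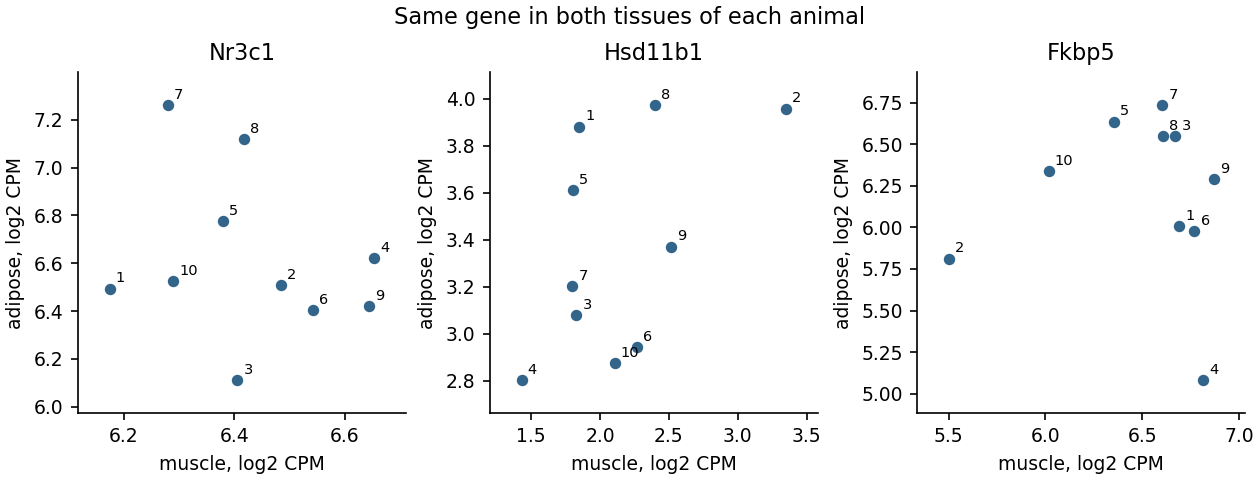
Log2 CPM (TMM factors) of each gene in muscle (horizontal axis) and in adipose tissue (vertical axis) of the same animal; points are the 10 animals, with their numbers. Fkbp5 shows animal 2 low in both tissues and animal 4 high in muscle and lowest in fat; r was -0.26 for Nr3c1, 0.52 for Hsd11b1 and -0.0038 for Fkbp5.

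The same correlation was computed for all tested genes as a background. The median r was 0.089, 58.5% of genes lay above 0, and the 5th and 95th percentiles were -0.53 and 0.625. Of all genes, 59.1% had an r at or above that of Fkbp5, 80.5% at or above that of Nr3c1 and 10.6% at or above that of Hsd11b1. All 3 members thus lay within the range that most genes show. These genes share libraries and are not independent of each other.

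**Figure D5:**
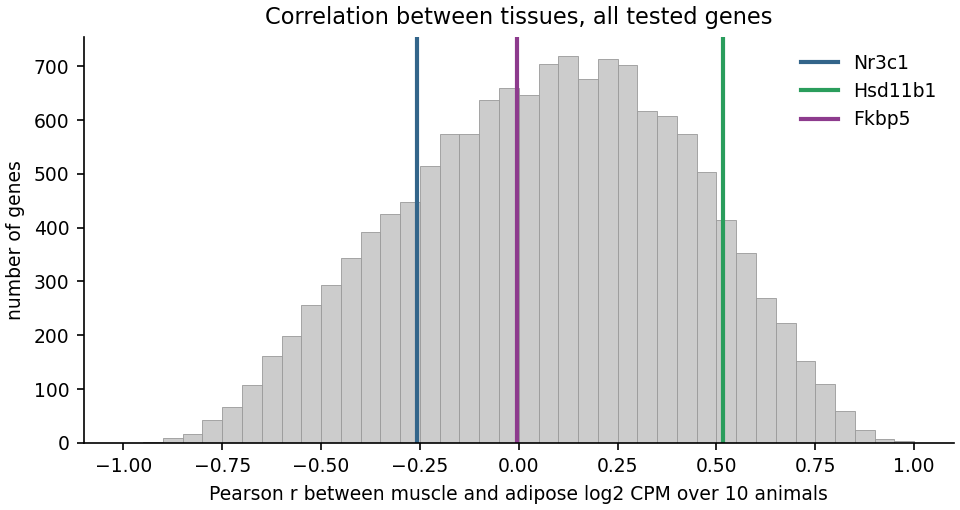
Number of genes (vertical axis) by Pearson r between muscle and adipose log2 CPM over 10 animals (horizontal axis), for 13806 tested genes. Vertical lines mark the 3 members; the line of Fkbp5, at -0.0038, lies near the middle of the distribution, whose median is 0.089.

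Within a tissue, the members were compared with each other over animals, to ask whether the response gene followed the receptor or the enzyme. None of the 6 correlations passed the test after adjustment over the family of 9, and with TMM factors 0 of the 6 had an unadjusted p below 0.05, by r or by rho. By library totals 1 of them did, Fkbp5 with Hsd11b1 in muscle (r = -0.68, permutation test, p = 0.045, adjusted p = 0.401). Fkbp5 and Nr3c1 had r = 0.21 in muscle (rho 0.50, permutation test, p = 0.563 and 0.145) and r = 0.32 in adipose tissue (rho 0.37, p = 0.37 and 0.297). Without the 2 libraries farthest from the median of Nr3c1, these values were 0.28 and -0.23. With each animal left out in turn, r was 0.076 to 0.551 in muscle and 0.1 to 0.541 in adipose tissue. Without adipose libraries 1, 3 and 5 the adipose value was 0.537. The sign in adipose tissue thus turned in the trim of 2 libraries but in none of the fits without a single animal.

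Fkbp5 and Hsd11b1 had r = -0.63 in muscle, the largest value of the 9 (permutation test, p = 0.063, adjusted p = 0.541), beside a rho of -0.12 (p = 0.759). It rests on muscle library 2, which held the most Hsd11b1 and the least Fkbp5: without this library r was 0.03. Without the 2 libraries farthest from the median of Hsd11b1 it was 0.29. In adipose tissue the same pair had r = 0.22 (rho 0.18, permutation test, p = 0.562 and 0.632), and 0.34 without the 2 farthest libraries.

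Hsd11b1 and Nr3c1 had r = 0.20 in muscle (rho 0.26, permutation test, p = 0.587 and 0.468) and 0.27 in adipose tissue (rho 0.21, p = 0.439 and 0.559). Without the 2 libraries farthest from the median of Nr3c1, they were 0.53 and 0.22. The smallest adjusted p of the 9 correlations was 0.541, for Hsd11b1 between tissues and for Fkbp5 with Hsd11b1 in muscle. No member fell into separate clusters of animals: the largest inner gap took at most 0.299 of the range, for Nr3c1 in adipose tissue.

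Among animals, the receptor had the smallest spread of the 3 members in muscle under both scalings. With TMM factors, the SD of its log2 CPM was 0.157 in muscle and 0.344 in adipose tissue. The median SD of all tested genes was 0.355 and 0.406, and that of genes with at least 5 CPM in both tissues 0.263 and 0.319, so the adipose SD of Nr3c1 lay between these medians. Of all tested genes, 7.92% had a lower SD than Nr3c1 in muscle, and 39.4% in adipose tissue. These shares were not matched for level: 87.8% of genes had a lower level than Nr3c1 in muscle, and 93.5% in adipose tissue. Hsd11b1 had SDs of 0.538 and 0.458, and Fkbp5 of 0.428 and 0.497, in muscle and adipose tissue. A lower SD than Hsd11b1 was found in 71.0% and 58.2% of genes, and a lower one than Fkbp5 in 59.7% and 63.8%. By library totals, the SD of Nr3c1 was 0.195 in muscle and 0.449 in adipose tissue, where Fkbp5 was lower at 0.416. The absolute deviation of Nr3c1 from the tissue median was 0.115 larger in adipose tissue on average with TMM factors (SD 0.317), and larger in 4 of 10 animals (two-sided exact permutation test by sign flips, p = 0.281, adjusted p = 0.843 over 3 members). By library totals it was 0.184 larger (SD 0.367), and larger in 7 of 10 animals (same exact test, p = 0.156, adjusted p = 0.468). Neither passed the test, which was chosen after the values were seen.

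The genes whose levels moved most like Fkbp5 were sought among 8302 genes with at least 5 CPM in both tissues, by Pearson r over 20 libraries after subtracting the mean of each tissue. The closest was ENSRNOG00000014382, with r = 0.79 (0.71 within muscle and 0.85 within adipose tissue). It stood at 35.9 ± 3.67 CPM in muscle and 24.7 ± 5.25 CPM in adipose tissue (SD, n = 10). The next was ENSRNOG00000001082, with r = 0.79 (0.82 and 0.77 within the tissues) and levels of 20.8 ± 6.94 and 9.74 ± 3.45 CPM (SD, n = 10).

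In the opposite direction, ENSRNOG00000053828 had r = -0.85 (-0.82 within muscle and -0.92 within adipose tissue), at 33.7 ± 10.8 and 87.6 ± 20.4 CPM (SD, n = 10). ENSRNOG00000048226 had r = -0.78, at 15.04 ± 3.81 and 41.3 ± 6.90 CPM (SD, n = 10). The median r over all genes compared was 0.012 and the 95th percentile 0.502. These identifiers are extremes picked from many genes, and no symbol was paired with them. On the same measure, the r of Fkbp5 with Nr3c1 was 0.28, and 19.2% of genes had an r with Fkbp5 at or above it. The r of Fkbp5 with Hsd11b1 was -0.20, and 76.7% of genes were at or above it.

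Other genes of the pathway, among them receptor targets, Hsp90 co-chaperones, receptor coregulators and further enzymes of steroid metabolism, were not analysed here, because the tables used here pair no symbols with the identifiers of the count table.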

How the data were processed

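Poly(A) RNA was sequenced from both tissues of each animal. The deposited values are expected counts by Ensembl gene and were not normalised; 25.3% of the values above 0 were whole within 0.005, and values were rounded for the tests. Per the submitters' processing notes, the tools were STAR, featureCounts and bcl2fastq and the assembly rn6. For the annotation, strand setting and multi-mapping reads, nothing is given in the sources used here. Columns were matched to samples by tissue letter and animal number.

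With edgeR 4.0.16 (R 4.3.3), low genes were removed by filterByExpr, TMM factors were set, and the robust quasi-likelihood test was run over all 13806 genes with no block for the animal. Log2 CPM used a prior count of 2. Correlations used 100000 permutations, exact below 10 animals. The fit and the permutation tests were tested on simulated data. For the fit, these data changed a small share of genes from a profile common to both tissues. They do not cover a difference in most genes, as found here. Alternatives used limma 3.58.1 and DESeq2 1.42.0.

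Same-numbered libraries come from the same animal per the labels. Over 8303 genes, their deviations from tissue means had r of -0.22 to 0.42 (median 0.12, against -0.03 between different animals). No libraries agreed within sampling noise (lowest chi-square per degree of freedom 12.5).

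The members and lists were chosen with earlier results of these data known. The text names the 3 members and the genes most like Fkbp5, limited to 2 identifiers in each direction because no symbols could be matched; the lists of pathway genes and cell markers were not run for the same reason. The intervals of the correlations, the test of spread and the ratios to all other genes were added after seeing the data.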

Additional observations from a re-analysis of the deposited data

Results flagged for a closer look

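The end values of 12 groups of 10 libraries (log2 CPM of each member and log2 ratios of members, by tissue) were compared with their neighbours against Dixon's 95% critical value. By chance, about 1 in 20 groups exceeds it. Here 2 groups did, both through muscle library 2. Its log2 ratio of Fkbp5 to Nr3c1 was -0.983, next to -0.274 for the nearest muscle library, a gap of 0.473 of the range. Its log2 ratio of Fkbp5 to Hsd11b1 was 2.152, next to 3.911, a gap of 0.544 of the range. In the same library Hsd11b1 was highest of the muscle libraries, with a gap of 0.437 of the range on the log2 CPM scale, and Fkbp5 lowest, with a gap of 0.376. Neither of these exceeded the critical value.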

How the results depend on the processing

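Over 16 results and 270 alternatives, 245 were counted as unchanged. For fold changes, ratios and correlations this means the same direction and side of the threshold, whatever the size. The correlation of Fkbp5 between tissues counts as unchanged at -0.602 without the 2 farthest animals, against -0.004. The number of genes called has no direction and was judged by its closeness to the main number alone. Its alternatives were all counted as unchanged. With library totals alone, 11932 genes were called in place of 11011, but their split moved. Calls favouring muscle fell from 5187 to 1692, and calls favouring fat rose from 5824 to 10240. Some fits without animal 2 entered more than once, so not all 270 are distinct. By library totals the log2 fold changes were -1.54 for Nr3c1 (now past the threshold) and -1.02 for Fkbp5 (turned), and the correlations were 0.015 for Fkbp5 between tissues and -0.095 for Fkbp5 with Nr3c1 in muscle; this scaling moves the median of all genes by -1.31. Nr3c1 passed at -0.41 with upper-quartile factors and Fkbp5 at 0.37 without muscle library 2. The correlation of Fkbp5 between tissues, near 0, was 0.002 with relative log expression factors and 0.004 without animals 1, 3 and 5. Without the 2 farthest animals, Fkbp5 had r = -0.23 with Nr3c1 in adipose tissue and 0.293 with Hsd11b1 in muscle, where it was 0.032 without muscle library 2. Without animals 1, 3 and 5, the Fkbp5 to Nr3c1 difference was 0.56 and no longer past the threshold (exact permutation test, adjusted p = 0.0781), with fewer animals. For the changes with upper-quartile factors and the left-out libraries, the cause was not tested.

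Leaving out each animal in turn gave ranges of 10702 to 11067 genes called, and log2 fold changes of -0.28 to -0.12 for Nr3c1, -1.35 to -1.11 for Hsd11b1 and 0.16 to 0.35 for Fkbp5. Correlations between tissues were -0.407 to -0.061 for Nr3c1, 0.293 to 0.653 for Hsd11b1 and -0.399 to 0.346 for Fkbp5. Correlations of Fkbp5 with Hsd11b1 were -0.771 to 0.032 in muscle and -0.214 to 0.402 in adipose tissue. The Fkbp5 to Nr3c1 difference was 0.36 to 0.58. With the animal as a replicate block, 10990 genes were called in place of 11011 and the log2 fold changes were -0.20 for Nr3c1, -1.25 for Hsd11b1 and 0.29 for Fkbp5; the block changed no call of a member. Depth limits Hsd11b1 in muscle most, at a median of 42.9 counts.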
